A study of Homo sapiens with 8 samples.

Results

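The CD1 family was measured as 5 genes, CD1A, CD1B, CD1C, CD1D and CD1E, taken by name from the 57189 genes counted in each library. They were picked with the outcome in view, from the ratio of PKF118-310 to control in each cell line and from the ratio of the control libraries, so the values below are a description and carry no p-value. All 5 passed the filter on low counts, as did 13280 genes in all. The samples were 2 established human lines of T-cell acute lymphoblastic leukemia (T-ALL), CUTLL1 (CUTTL1 in the labels) and TIB153. Each line was sequenced as placebo-treated control cells, called not transfected in the labels, and after exposure for a day to a micromolar dose of PKF118-310, a small molecule that blocks the binding of β-catenin to TCF transcription factors. The 4 groups held 1 library each, sequenced in 2 lanes that were summed, so values within a line carry no replicate error and each line stands for itself only.

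CD1 proteins are heavy chains built like those of MHC class I, which pair with beta-2 microglobulin and hold lipids rather than peptides for inspection by T cells. CD1A, CD1B and CD1C encode forms that present lipids to diverse T cells, CD1D encodes the form seen by natural killer T (NKT) cells, and CD1E encodes a form that stays inside the cell and helps to load lipids onto the others. In the thymus the family is typical of cortical thymocytes, the immature stage that carries both CD4 and CD8, and surface CD1a is used to recognise cortical T-ALL. Outside the thymus CD1 molecules are best known from dendritic cells and, for some members, B cells.

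All 5 genes are protein coding and lie in 1 cluster on chromosome 1 of hg38 that spans 177.6 kb. CD1D (ENSG00000158473) is at chr1:158179947-158184896, CD1A (ENSG00000158477) at chr1:158254137-158258269, CD1C (ENSG00000158481) at chr1:158289786-158293630, CD1B (ENSG00000158485) at chr1:158327951-158331531 and CD1E (ENSG00000158488) at chr1:158353696-158357553. CD1B is on the minus strand and the others are on the plus strand. No exonic base of any member is shared with another gene by position on either strand.

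The members resemble each other in sequence, which matters for assigning short reads. Their longest coding sequences in GENCODE were 69.9% to 74.4% identical at aligned positions, lowest between CD1C and CD1D and highest between CD1A and CD1B. The longest stretch that any pair shared letter for letter was 92 coding bases in the fourth exon of CD1A (chr1:158256835-158256926, plus strand) and of CD1B (chr1:158329508-158329599, minus strand), and it is shown because a read inside it cannot be given to either gene alone. No letters are in capitals, since the genes do not differ there.
CD1A and CD1B shared run: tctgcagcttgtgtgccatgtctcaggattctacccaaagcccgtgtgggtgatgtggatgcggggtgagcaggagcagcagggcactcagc
Of all windows of 50 bases in the transcripts of each gene, those also found in another gene's transcripts made up 2.59% for CD1A, 3.66% for CD1B, 0.454% for CD1D and 1.61% for CD1E. CD1C shared none. The sources used here do not say how reads that map to more than 1 place were counted.

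The promoters are shown because the compound targets TCF, whose sites hold the letters CTTTGA or CTTTGT. RefSeq starts on GRCh38.p14 gave 6 windows of 250 bases before a start for CD1A, CD1C, CD1D and CD1E. Either string, searched on both strands, occurred in 4 of the 6 windows, against 22.8% of the 35116 windows of that length before all RefSeq starts. Those 4 windows belonged to 3 of the 4 genes, and nothing is read from so few. The parts outside GENCODE exons are printed 5′ to 3′ on the plus strand, with the strings in capitals.
CD1A, chr1:158248086-158248335: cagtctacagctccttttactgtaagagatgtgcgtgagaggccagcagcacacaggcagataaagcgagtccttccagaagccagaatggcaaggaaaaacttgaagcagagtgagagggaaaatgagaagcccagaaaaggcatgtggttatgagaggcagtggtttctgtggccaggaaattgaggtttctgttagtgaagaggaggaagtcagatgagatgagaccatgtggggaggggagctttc
CD1C, chr1:158289673-158289785: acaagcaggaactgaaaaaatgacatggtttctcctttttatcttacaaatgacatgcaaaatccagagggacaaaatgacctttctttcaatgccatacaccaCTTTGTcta
CD1D, first start, chr1:158179697-158179946: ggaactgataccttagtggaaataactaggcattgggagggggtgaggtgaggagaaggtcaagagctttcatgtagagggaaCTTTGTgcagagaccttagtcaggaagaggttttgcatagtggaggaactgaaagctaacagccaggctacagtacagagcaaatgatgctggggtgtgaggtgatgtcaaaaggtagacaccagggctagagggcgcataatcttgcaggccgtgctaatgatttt
CD1D, later start, in an intron, chr1:158180645-158180818: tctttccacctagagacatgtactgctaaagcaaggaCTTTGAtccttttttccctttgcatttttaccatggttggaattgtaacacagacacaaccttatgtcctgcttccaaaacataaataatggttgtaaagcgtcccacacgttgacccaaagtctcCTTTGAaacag
CD1E, chr1:158353644-158353695: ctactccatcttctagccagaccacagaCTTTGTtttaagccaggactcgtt
The matches began 146 bases before the CD1C start, 167 before the first CD1D start, 213 and 87 before the later one and 222 before the CD1E start. The printed CD1A window, which held none, lies before a RefSeq start at chr1:158248336, upstream of the GENCODE start of CD1A at chr1:158254137. The second CD1A window, which is exonic in GENCODE, held none either. No window of CD1B was among those used here, so CD1B is named only.

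Library totals ran from 7609427 to 8140391 counts, and paired lanes differed by no more than sampling noise (chi-square per degree of freedom 0.990 to 1.02). Levels are CPM, with library sizes adjusted by TMM, and 3 counts corresponded to 0.357 to 0.405 CPM. As a check of the label, all 11 T lineage genes had reads in every library and summed to 2160 to 2860 CPM. The 12 dendritic cell and monocyte markers summed to 0.674 to 1.12 CPM and none had more than 4 counts in any library, with CD207, CLEC10A, FCER1A, ITGAX and HLA-DRA at 0 or 1 count. Of 7 B cell markers, MS4A1, CD79B, PAX5 and CD22 had 0 to 3 counts. CD79A had 80 to 875 and BLK 49 to 193.

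The make-up of CD1 mRNA differed between the lines. Per kilobase of exon, the order in control CUTLL1 was led by CD1B at 122 CPM (95% Poisson interval 115 to 129). CD1E at 52.9 and CD1D at 52.7 followed and did not differ beyond counting error, and CD1A at 33.7 and CD1C at 25.8 came last. In control TIB153 the order was led by CD1A at 40.0 (36.9 to 43.2), followed by CD1D at 29.5 and then by CD1C at 19.3 and CD1E at 18.4, whose intervals overlapped. CD1B, the leading member in CUTLL1, was the lowest member in TIB153 at 5.77 CPM per kilobase (4.43 to 7.40).

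**Figure D1:**
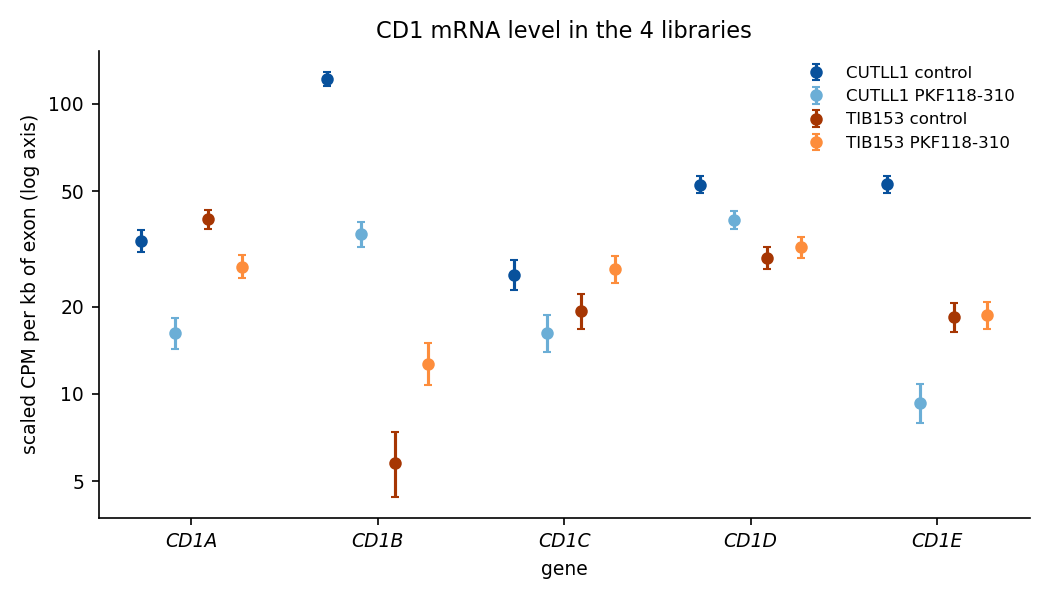
Level of each CD1 gene in scaled CPM per kilobase of exon on a log axis, 1 point per library, with 95% Poisson intervals that cover counting error only. CD1B spans the widest range, from 5.77 in control TIB153 to 122 in control CUTLL1, while CD1C stays between 16.2 and 26.9.

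The treated libraries had other orders. In CUTLL1 with PKF118-310, CD1D at 39.9 CPM per kilobase (37.0 to 42.9) and CD1B at 35.5 (32.1 to 39.2) overlapped at the top, CD1C and CD1A were both at 16.2, and CD1E was lowest at 9.27 (7.91 to 10.8). In TIB153 with PKF118-310, CD1D at 32.0 and CD1A at 27.5 had overlapping intervals, as did CD1A and CD1C at 26.9, and CD1E at 18.7 and CD1B at 12.7 were lower. As a share of the family's length-adjusted level, CD1B made up 42.5% in control CUTLL1 and 30.4% after treatment, and 5.11% and 10.8% in TIB153. CD1D, the NKT cell ligand, took 23.2% of the family's reads in control CUTLL1 (95% exact binomial interval 21.8% to 24.5%) and 41.4% after treatment (39.1% to 43.7%), and 29.4% and 31.8% in TIB153.

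**Figure D2:**
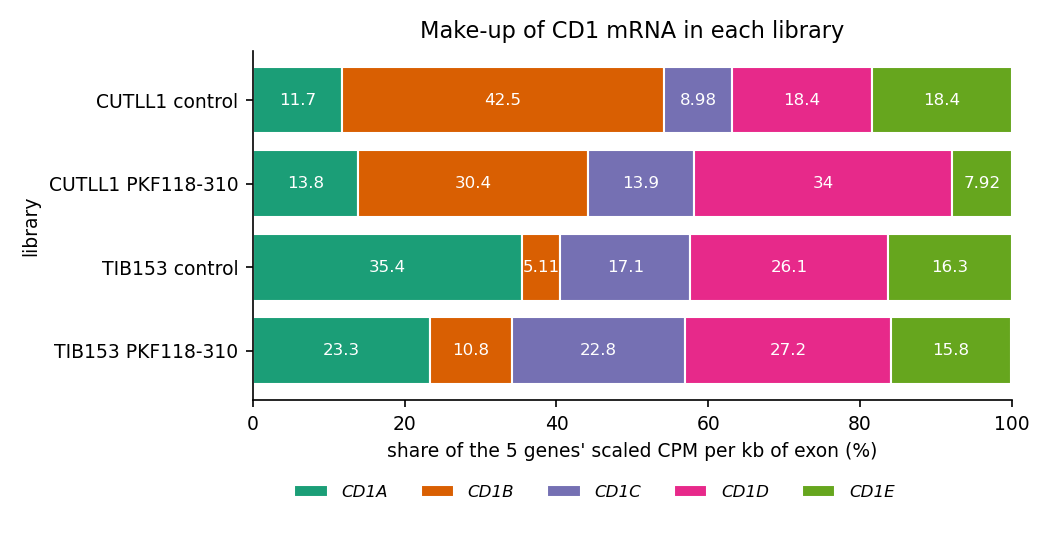
Share of each CD1 gene in the family's summed CPM per kilobase of exon, 1 bar per library, each bar adding to 100%. CD1B takes 42.5% of the bar of control CUTLL1 and 5.11% of that of control TIB153, and CD1E takes 18.4% of the control and 7.92% of the treated bar in CUTLL1.

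Between the control libraries, the reads of the whole family summed to 513 CPM in CUTLL1 (497 to 529) and 227 in TIB153 (216 to 237). CD1B had 1260 counts in CUTLL1 and 62 in TIB153, a 20.9-fold higher level (log2 ratio 4.39, 95% counting interval 4.03 to 4.79). CD1E had 864 and 312 counts, a 2.87-fold higher level (1.52, 1.34 to 1.72). These were the 2 members at least 2-fold higher in CUTLL1 with an interval that excluded no change, as were 6.12% of all genes tested. No member was lower by that rule, against 9.45% of all genes. CD1D had 880 and 512 counts (log2 ratio 0.84, 0.68 to 0.996), CD1C 274 and 213 (0.42, 0.15 to 0.68), and CD1A 523 and 645 (-0.25, -0.42 to -0.079). CD1A was the only member whose ratio pointed to TIB153.

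In CUTLL1, all 5 members were lower with PKF118-310 than in control cells. The family's reads summed to 513 CPM in control and 217 in treated cells, a log2 ratio of -1.24 (-1.32 to -1.16). CD1A, CD1B and CD1E were at least 2-fold lower with an interval that excluded no change, which held for 2.21% of the genes tested. No member was 2-fold higher, against 4.8% of the genes. Because the members were picked from this contrast, nothing is read from these shares. The median log2 ratio of the 5 members was -1.06 and that of all genes 0.0027.

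CD1E, the intracellular lipid loader, had the lowest ratio of the family, with 864 counts in control and 164 in treated CUTLL1 cells. Its level was 5.69-fold lower (log2 ratio -2.51, -2.76 to -2.27), and 24 of the 13280 genes had a lower ratio. CD1B, which binds lipids with the longest tails, had 1260 and 398 counts and was 3.43-fold lower (-1.78, -1.94 to -1.61). CD1A, the diagnostic marker of the cortical stage, had 523 and 272 counts and lay just past the 2-fold limit (-1.06, -1.28 to -0.84). CD1C and CD1D were lower by less than 2-fold. CD1C had 274 and 187 counts (-0.66, -0.94 to -0.39), and CD1D had 880 and 721 (-0.40, -0.55 to -0.26).

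In TIB153 the family's reads summed to 227 CPM in both libraries, with a log2 ratio of 0.0043 (-0.090 to 0.099), while single members went different ways. CD1A was the only member with an interval below no change, at 645 counts in control and 484 in treated cells (log2 ratio -0.54, -0.71 to -0.37). CD1B had 62 and 149 counts and was the only member at least 2-fold higher (1.13, 0.70 to 1.59), as were 5.47% of all genes. Without lane 1 its log2 ratio was 0.93, short of 2-fold. No member was at least 2-fold lower, against 2.12% of all genes. The median log2 ratio was 0.12 over the members and -0.0092 over all genes. CD1C had 213 and 324 counts (0.48, 0.23 to 0.74). CD1D had 512 and 606 (0.12, -0.054 to 0.29) and CD1E 312 and 345 (0.019, -0.21 to 0.25), and both intervals held no change. Treated TIB153 cells still had less CD1B than treated CUTLL1 cells, 17.7 against 49.6 CPM.

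CD1B and CD1C thus lay on opposite sides of no change in the 2 lines, lower in CUTLL1 and higher in TIB153. Intervals placed in that way were found for 187 genes, or 1.41% of those tested. The members were picked from these ratios and from that of the controls, so nothing is read from this share or those above. The lines' log2 ratios differed by -2.91 for CD1B, -2.53 for CD1E, -1.14 for CD1C, -0.52 for CD1D and -0.52 for CD1A (CUTLL1 minus TIB153). With 1 library per group these differences could not be tested. CD1A was the only member lower in both lines with both intervals below no change. In bulk RNA, fewer CD1-positive cells and less CD1 RNA per cell cannot be told apart.

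**Figure D3:**
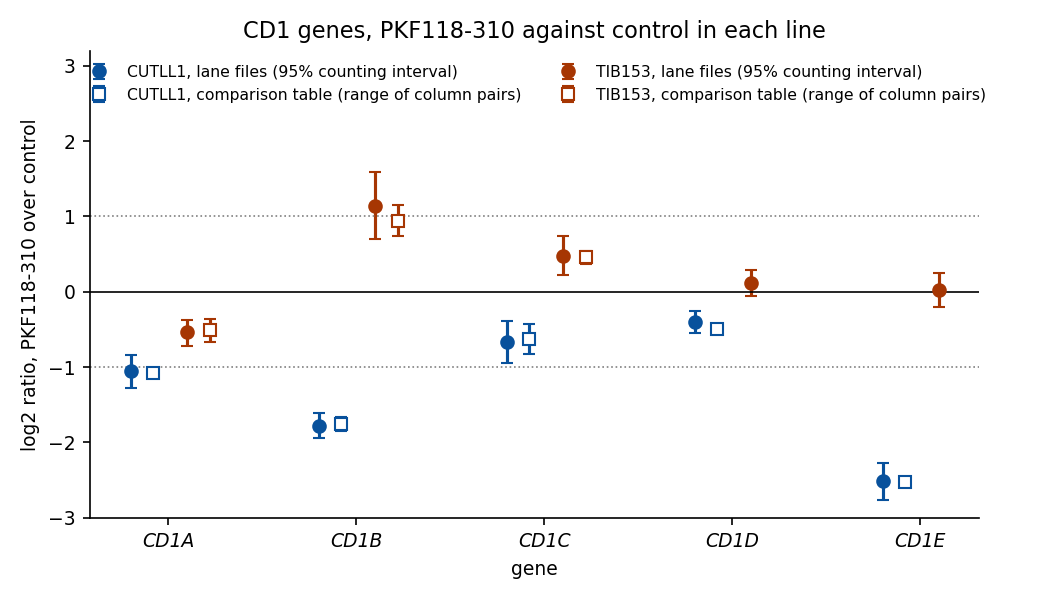
Log2 ratio of treated over control cells for each CD1 gene in CUTLL1 (blue) and TIB153 (brown). Filled points are the lane files with 95% counting intervals, open squares are the ratios of column means in the authors' comparison tables with the range over the 4 column pairs, and dotted lines mark 2-fold. Every blue point is below 0. All brown points but that of CD1A are above 0, with intervals that exclude 0 for CD1B and CD1C and hold 0 for CD1D and CD1E.

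The authors' comparison tables gave another look at the same members. Each table holds counts in 2 control and 2 treated columns, which are not the lane counts. In each group 1 column differed from the summed lanes by much less than sampling noise (median squared difference over counting variance 0.053 to 0.0634, where 1 is the value for separate draws from 1 library), so it shares reads with them, and the other differed by more (1.36 to 1.43). The study names a pair of controls and a pair of treated samples for each line, but how they relate to these columns and to the lane files is not stated. The 2 columns of a group differed from each other by 1.28 to 1.45, whereas the control lanes gave 0.984 to 1.03, so the counting intervals above are narrower than the spread between columns. After division by size factors recovered from the authors' mean column, CD1E in CUTLL1 was at 892 and 893 normalised counts in the control columns and at 158 and 151 in the treated ones. CD1B was at 1264 and 1312 against 398 and 364. In TIB153, CD1B was at 77.4 and 59.7 against 129 and 133, a log2 ratio of means of 0.93, just short of 2-fold. CD1C was at 198 and 213 against 275 and 290 in TIB153, and at 280 and 239 against 157 and 179 in CUTLL1. CD1A was at 656 and 633 against 493 and 415 in TIB153. The tables list only genes that the authors called on these columns, so the control and treated columns of a listed member had to stand apart. CD1D and CD1E are not listed for TIB153.

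In CUTLL1 the machinery that CD1 molecules depend on had a median ratio nearer to no change than the CD1 genes. In TIB153 it did not, with a median log2 ratio of -0.29 against 0.12 for the CD1 genes. Of 21 genes for assembly, trafficking and lipid loading, 19 were tested and none was 2-fold higher or lower in either line, with a median log2 ratio of -0.044 in CUTLL1 and -0.29 in TIB153. MTTP, left out by the filter on low counts, had 1 and 12 counts in control and treated CUTLL1 and 0 and 2 in TIB153. B2M, the light chain of every CD1 molecule, had 3494 and 4787 counts in control and treated CUTLL1 and 4144 and 5399 in TIB153 (edgeR log2 change 0.30, SE 0.126, adjusted p = 0.134). Across both lines, edgeR's quasi-likelihood test with cell line as a block and Benjamini-Hochberg adjustment called 6.11% of all genes as risen and 6.78% as fallen. It called 1 gene of this list in each direction. NPC2, a lysosomal sterol carrier, rose by 0.69 on the log2 scale (SE 0.188, adjusted p = 0.0296), and AP3S1, a subunit of the adaptor that sorts CD1b to lysosomes, fell by 0.57 (SE 0.157, adjusted p = 0.0303). DESeq2 called neither. AP3B1, another subunit of that adaptor, and GM2A, a lipid transfer protein, did not pass (edgeR adjusted p = 0.0969 and 0.0851).

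The median ratio of the other class I and class I-like heavy chains was above 0 in CUTLL1, where all CD1 ratios were below 0. Of 16 such genes 11 were tested, with a median log2 ratio of 0.54 in CUTLL1 and 0.27 in TIB153. Across both lines 4 rose and none fell in edgeR's test. HLA-E, a ligand of NK cell receptors, rose by 0.71 (SE 0.132, edgeR adjusted p = 0.00518). MICA and ULBP2, stress ligands of the NKG2D receptor, rose by 1.17 and 1.14 (edgeR adjusted p = 0.0178 and 0.0499). DESeq2 called HLA-E but neither MICA nor ULBP2.

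Among 15 other cortical thymocyte genes, 6 were at least 2-fold lower in CUTLL1 (against 2.21% of all genes) and 1 in TIB153 (against 2.12%), and 1 was at least 2-fold higher in TIB153 (against 5.47%). The list's median log2 ratio was -0.75 in CUTLL1 and -0.47 in TIB153. Across both lines 4 fell and 1 rose in edgeR's test. RAG1, which cuts DNA in antigen receptor rearrangement, had counts of 1876 and 530 (CUTLL1) and of 207 and 68 (TIB153) (log2 change -1.86, SE 0.149, edgeR adjusted p = 3.6e-05). RAG2, its partner, and CD8B, a coreceptor chain, also fell (edgeR adjusted p = 0.0344 and 0.0214), as did TFDP2, and MYB rose. DESeq2 called RAG1, TFDP2 and MYB but not RAG2 or CD8B. CD4 and PTCRA were at least 2-fold lower in CUTLL1, while their intervals in TIB153 held no change (-0.40 to 1.35 and -0.35 to 1.11). CD4 had counts of 1082 and 358 (CUTLL1) and of 20 and 30 (TIB153) (adjusted p = 0.227 in edgeR's test across lines). PTCRA, the invariant chain of the pre-T cell receptor, had counts of 219 and 115 (CUTLL1) and of 29 and 41 (TIB153) (edgeR adjusted p = 0.355). DNTT, which adds bases at receptor joins, had counts of 156 and 24 (CUTLL1) and of 450 and 327 (TIB153) (edgeR adjusted p = 0.294). CD8A had counts of 200 and 148 (CUTLL1) and of 45 and 32 (TIB153) (edgeR adjusted p = 0.162). Between the control libraries, 10 of the 15 genes were at least 2-fold higher in CUTLL1 (against 6.12% of all genes), as were CD1B and CD1E, and 1 was at least 2-fold lower (against 9.45%).

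**Figure D4:**
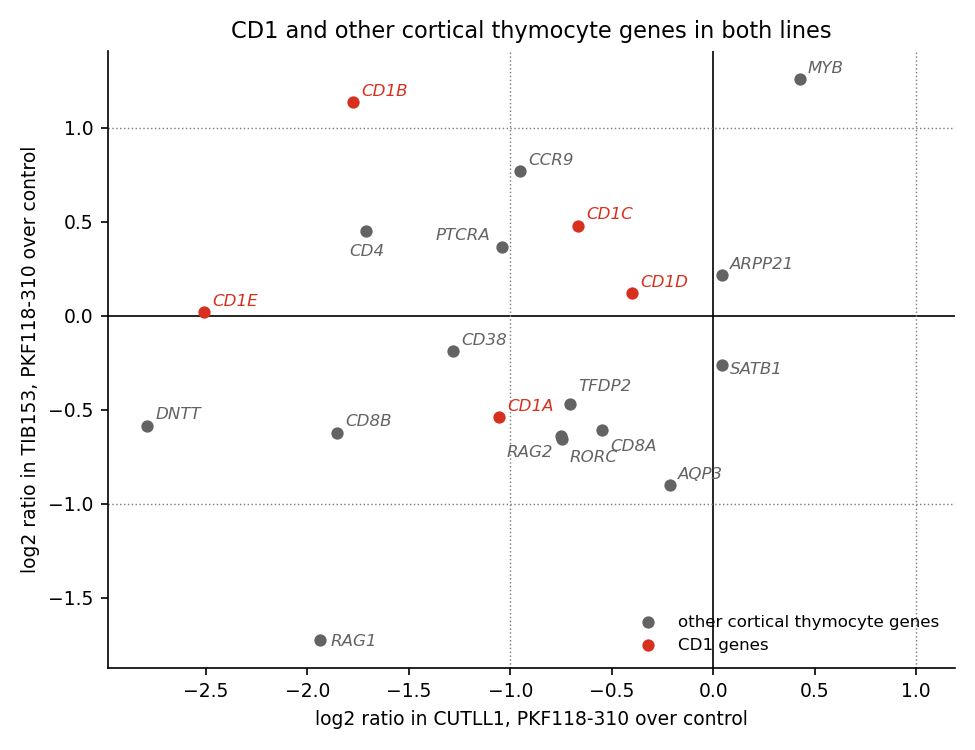
Log2 ratio of treated over control cells, CUTLL1 on the horizontal and TIB153 on the vertical axis, for the CD1 genes (red) and 15 other cortical thymocyte genes (grey), with dotted lines at 2-fold. All CD1 genes are left of 0 and all but CD1A are also above 0. Among the grey points, CD4, PTCRA and CCR9 lie both left of 0 and above 0, while MYB and ARPP21 are above 0 on both axes. RAG1 is the only gene past 2-fold on the lower side in both lines.

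Genes of later and broader T cell stages had mixed values beside the CD1 genes. Of 13 genes of mature thymocytes and naive T cells, by the 2-fold rule 3 were higher and 3 lower in CUTLL1, 1 was higher and 2 were lower in TIB153. The list's median log2 ratio was -0.074 in CUTLL1 and -0.44 in TIB153. CCR7, a homing receptor of naive T cells, had counts of 12 and 56 (CUTLL1) and of 15 and 12 (TIB153), and IL7R, the interleukin receptor of early and naive T cells, had counts of 1388 and 450 (CUTLL1) and of 74 and 65 (TIB153). CD28 had counts of 635 and 133 (CUTLL1) and of 1807 and 1204 (TIB153), and ITGB7 had counts of 9 and 23 (CUTLL1) and of 112 and 58 (TIB153). Of the 11 T lineage genes, CD3G, CD247 and CD7 fell across both lines in edgeR's test, and CD2 alone was 2-fold lower in CUTLL1, at 104 and 33 counts. The median log2 ratio of these genes was -0.41 in CUTLL1 and 0.10 in TIB153. Of 24 thymocyte transcription factors 19 were tested, with medians of 0.11 in both lines, and 4 rose and 1 fell across them. TCF7, which encodes a partner of β-catenin, fell by 0.97 (SE 0.179, edgeR adjusted p = 0.0109), with counts of 5676 and 2392 (CUTLL1) and of 4262 and 3108 (TIB153). LEF1, its relative, had counts of 7566 and 8790 (CUTLL1) and of 7355 and 8638 (TIB153) (edgeR adjusted p = 0.636). ID2, an inhibitor of E proteins, rose by 1.94 (SE 0.353, edgeR adjusted p = 0.00483), and HES1, a NOTCH target, by 1.30 (SE 0.337, edgeR adjusted p = 0.0307). The HES1 call was lost with DESeq2 (adjusted p = 0.0973) and in edgeR without lane 1 (adjusted p = 0.0558). ELF1 and SOX4 rose as well. RUNX3 had counts of 204 and 561 (CUTLL1) and of 279 and 363 (TIB153) (edgeR adjusted p = 0.0655).

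Genes of invariant NKT cells, the best known T cells that recognise CD1D, had mostly few reads. The segments TRAV10, TRAJ18 and TRBV25-1 of the invariant NKT cell receptor had 0 or 1 count in each library, and KLRB1 and KLRD1 likewise. ZBTB16, their lineage factor, had 13 to 25 counts and SLAMF1 2 to 19. Of 9 genes in the list 4 were tested, with median log2 ratios of 0.048 in CUTLL1 and 0.38 in TIB153, and none passed in either line or across them. SH2D1A, an adaptor of SLAM receptors also used by other T cells, had counts of 1957 and 2079 (CUTLL1) and of 1742 and 2495 (TIB153), and SLAMF6 had counts of 61 and 72 (CUTLL1) and of 200 and 158 (TIB153).

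Across the 4 libraries, no member had another CD1 gene among the 5 genes nearest to it in pattern. Likeness was taken as the distance between log2 levels centred over the 4 libraries, among 11406 other genes with at least 100 reads, and a small distance over 4 points is a description only. CD1B was at 2.65 from CD1D, its nearest family member, which ranked 597 among its neighbours. Nearest to CD1B were PEX5L at 0.480, MLH3, LTB, ADAMTS17 and, in the fifth place, PTCRA at 1.02. CD1E had DCLK3 nearest at 0.695, then RAPGEF5, LUNAR1, RMI2 and AC011893.1, and CD1A, its nearest family member, ranked 160 at 1.34. CD1D had the closest matches, GNPTG at 0.0551, ADGRB2, LARP7, AKAP6 and ATXN1L. CD1A lay nearest to LINC01237 at 0.0591, HSD17B8, RPL36A, NME1 and SLC30A4, and CD1C to RTL8A at 0.108, GNB1L, POLM, AC127502.2 and CDK10. CD1C and CD1D, at 0.795, were the closest pair within the family. Many genes lay nearer to each, as CD1D ranked 5257 among the neighbours of CD1C and CD1C ranked 5643 among those of CD1D.

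The genes around the cluster were mostly silent. Of 42 other genes within 500 kb, 21 carry olfactory receptor names, 30 had no read in any library and 5 had at least 30 reads. KIRREL1, an adhesion protein gene upstream of CD1D, had 1006 and 977 counts in control and treated CUTLL1 (log2 ratio -0.16, -0.29 to -0.029) and 758 and 1465 in TIB153 (0.82, 0.70 to 0.95). AL138899.2 and AL138899.1, a pseudogene and a long non-coding RNA that lie between CD1D and CD1A, had log2 ratios of 0.23 (-0.20 to 0.68) and 0.43 (0.011 to 0.86) in CUTLL1, where the CD1 genes on both sides had ratios below 0. The antisense RNA AL365440.2, beyond CD1E, had 98 and 49 counts in CUTLL1 (-1.11, -1.64 to -0.61) and 15 and 12 in TIB153. Within the cluster, the ratios in CUTLL1 became lower from CD1D at -0.40 to CD1E at -2.51 at the other end, apart from CD1C at -0.66, which was above CD1A at -1.06. TIB153 had no such order, with 0.12, -0.54, 0.48, 1.13 and 0.019 from CD1D to CD1E. The members were picked from these ratios, and a trend along the cluster was not tested.

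**Figure D5:**
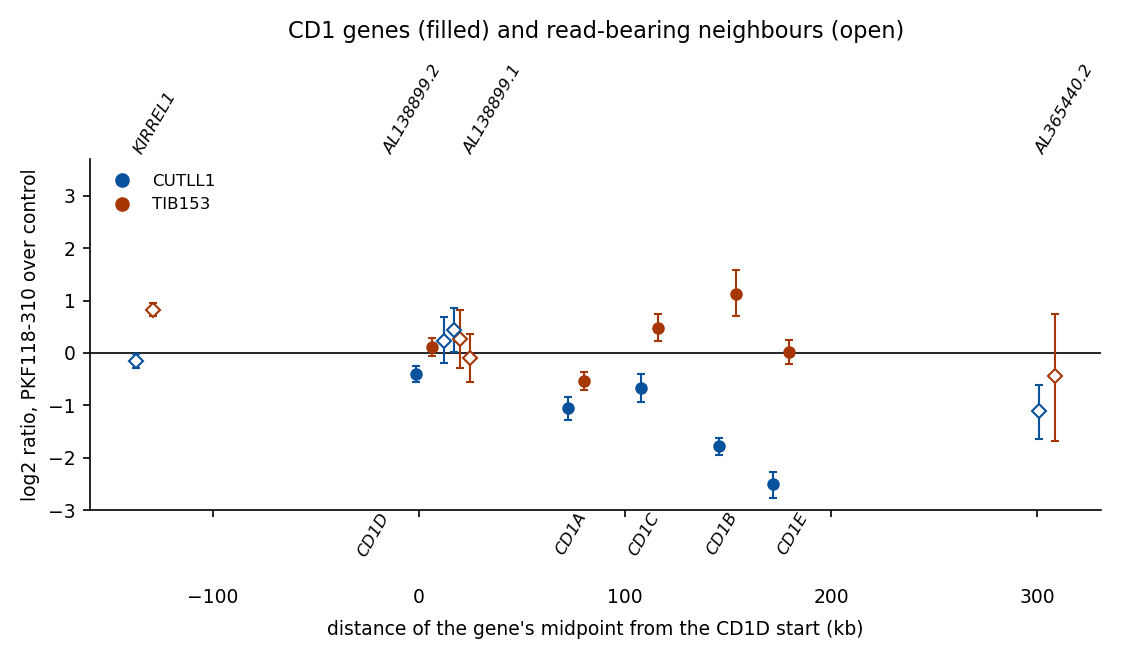
Log2 ratio of PKF118-310 over control (95% counting intervals) against the distance of each gene's midpoint from the start of CD1D in kb, for CD1 genes (filled) and 4 of the neighbours with at least 30 reads (open), with CUTLL1 in blue and TIB153 in brown shifted apart for clarity. In CUTLL1 the CD1 genes are all below 0 and CD1E, the last of the cluster, is lowest at -2.51.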

How the data were processed

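Poly(A)-selected RNA from 4 groups was made into stranded libraries, each sequenced in 2 lanes. The authors deposited raw whole-number counts per gene for each lane. HISAT2, HTSeq, DESeq2 and the build hg38 are named in the submitters' processing notes. Versions, the strand setting and the handling of reads with several matches are not given in the sources used here. The comparison tables deposited by the authors hold counts in 2 control and 2 treated columns per line, a mean normalised count (a signal that is never negative), and the authors' fold changes, test statistics and p-values, which were not used.

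Lanes are technical replicates per the labels and were summed. The members and gene lists were chosen with earlier results of these data known. Genes passing filterByExpr (13280) were scaled by TMM (R 4.3.3, edgeR 4.0.16). Ratios within a line used a pseudocount of 0.5 counts and exact binomial 95% intervals, and levels used exact Poisson intervals. Both cover counting error only. A gene was called at a ratio of at least 2-fold with an interval excluding no change. Lists were tested across lines with edgeR's robust quasi-likelihood test, cell line as a block (n = 2 lines, 1 residual degree of freedom, median prior 13), with Benjamini-Hochberg adjustment at 0.05. DESeq2 1.42.0 was an alternative. These p-values draw mostly on spread pooled over genes. Scripts were tested on simulated data. Positions came from GENCODE v29, which matched 99.5% of 11796 genes with at least 80 reads.

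The named genes were the 5 members, B2M, RAG1, DNTT, PTCRA, CD4, CD8A, CD8B, TCF7 and LEF1, beside a few items that are not reported here, up to 4 genes per list with the largest mean absolute ratio at 5 CPM or more in any library, the 5 genes nearest in pattern to each member, and neighbours within 500 kb with at least 30 reads. Other genes called in a list, and markers with few counts, were named after their values were seen. Alternatives were total-count and DESeq2 scaling, a pseudocount of 2, no filter, each lane alone, a fit that was not robust, no line block and, chosen after seeing the data, the columns of the comparison tables.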

Additional observations from a re-analysis of the deposited data

Results flagged for a closer look

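CD1B and CD1C lay on opposite sides of no change in the 2 lines. The log2 ratio in CUTLL1 minus that in TIB153 was -2.91 for CD1B (-1.78 and 1.13) and -1.14 for CD1C (-0.66 and 0.48). With 1 library per group the difference was not tested. In the comparison tables the control and treated columns of both genes had the same order as in the lane files in each line. Those tables list only genes that the authors called on these columns, so the columns of a listed gene had to stand apart. In addition, 1 column of each group shares reads with the lane files. The shared order is therefore not separate evidence.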

How the results depend on the processing

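Ratios of the 5 members under scaling, pseudocount, filter and lane alternatives, and in the columns of the comparison tables, stayed within their counting intervals in 98 of 98 values, and 97 kept their sign. The exception was CD1E in TIB153, at -0.022 against 0.019 with no filter on low counts. All these settings reuse the same reads in whole or in part, so staying within the intervals says little about spread between replicates. CD1B in TIB153 was not 2-fold higher with lane 1 left out (log2 ratio 0.93) or in the comparison table (0.93). Counts of genes called within a line or between the controls kept within 1.5 times their main values. Across lines, 812 genes rose and 900 fell. With DESeq2 194 rose and 249 fell, with total-count scaling 552 fell, and without lane 1 592 fell. Without the line block edgeR called 0 genes in either direction, with 889 at an unadjusted p under 0.05. Of the 21 genes called across lines in the gene lists, DESeq2 kept 11, and those it lost included AP3S1, CD247, CD8B, HES1, MICA, NPC2, RAG2 and ULBP2. Without lane 1, the calls that edgeR lost included AP3S1, HES1, NPC2 and ULBP2 (adjusted p 0.0527 to 0.0634), and without lane 2 CD247, RAG2 and ULBP2 (0.0515 to 0.11). A total of 8 cortical thymocyte genes fell, against 4, when the fit was not robust or no filter was used, and the cause was not tested. Treated and control libraries were matched only through the line block. No paired analysis within a line was possible because the shared numbers in the labels are lanes of 1 library, so no replicate number could serve as a block. The depth of each library limits CD1B in TIB153 most, at 62 and 149 counts.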
